A study of Mus musculus with 12 samples.

Results

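Immediate early genes are switched on within minutes of a stimulus, without new protein synthesis, and their transcripts are short-lived. The 9 described here are members of that class outside the AP-1 family: the transcription factors Egr1, Klf4 and Klf6, the nuclear receptor Nr4a1, the regulators of mRNA decay Btg2 and Zfp36, the phosphatase Dusp1, and the small nuclear proteins Ier2 and Ier5. Their members on the array were the 17 probe sets, of 45098 in all, that the probe-to-gene table assigns to one of these symbols and to no other gene. The 9 genes stand among 18193 with such a probe set. They were put together because earlier results of these data showed several of them higher after 5 days of high-fat diet, so their own differences are given as a description. No filter on low signal was set, and all 17 probe sets were tested.

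Total RNA of skeletal muscle from C57Bl/6 mice was labelled as biotin-cRNA and read on 12 Affymetrix arrays. All mice were group-housed and ate chow, with 13% of calories from fat, up to the age of 6 weeks. Of the arrays, 4 are from mice that then spent 5 days on a high-fat diet, in which fat supplied 46% of calories, 4 from mice that spent 42 days on it, and 4 from mice kept on chow, the control for both times. The labels give no genetic change, no sex, no name of the muscle, no time of day, no batch and no age of the chow mice at sampling. With the diet begun at 6 weeks in both groups, the 42-day mice were older at sampling than the 5-day mice. Age and time on the diet therefore cannot be told apart between them, and 1 chow group cannot match both ages. They also do not say whether replicates came from separate animals, so the tests measure only the spread between samples, which may be technical. Values are log2 RMA signals, on which 1 unit is a doubling. Array medians lay at 7.61 ± 0.017 after 5 days, 7.67 ± 0.020 after 42 days and 7.67 ± 0.019 on chow (SD, n = 4 arrays each). The 8 muscle markers, among them Ckm and Acta1, averaged 15.08, 15.10 and 15.07 in the same groups, near the top of the array's range.

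In resting cells the promoters of these genes are already open. Serum response factor, which binds the CArG box together with ELK factors, and CREB, which binds the cAMP response element, pass MAP kinase, calcium and cAMP signals on to them. In skeletal muscle the class is known to respond to contraction, stretch, injury and handling of the tissue. Several products then act back on the response: Dusp1 removes phosphate from MAP kinases, Zfp36 brings mRNAs with AU-rich elements to decay, and Btg2 recruits the CCR4-NOT deadenylase.

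The promoters of 5 members are shown because they differ in these elements. RefSeq promoter entries (GRCm38.p6, 250 bases before to 50 after the transcript start) matched 7 of the 9 genes. The promoters of Egr1 and Ier2 were not searched, so nothing is said of their elements. Each line below gives the 250 bases before the start, 5′ to 3′ on the gene's strand. Capitals mark the cAMP response element TGACGTCA and its core TGACG on either strand (CGTCA when read on the other), and in Zfp36 the CArG box. Btg2 lies on the minus strand at chr1:134079156-134079405, Dusp1 on the minus strand at chr17:26508473-26508722, Ier5 on the minus strand at chr1:155099637-155099886, Nr4a1 on the plus strand at chr15:101266596-101266845 and Zfp36 on the minus strand at chr7:28379229-28379478.
Btg2: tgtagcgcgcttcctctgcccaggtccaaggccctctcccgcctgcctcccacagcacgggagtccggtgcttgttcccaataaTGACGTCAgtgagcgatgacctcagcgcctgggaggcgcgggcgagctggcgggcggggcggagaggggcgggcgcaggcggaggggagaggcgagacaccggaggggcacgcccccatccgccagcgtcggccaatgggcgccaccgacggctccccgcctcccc
Dusp1: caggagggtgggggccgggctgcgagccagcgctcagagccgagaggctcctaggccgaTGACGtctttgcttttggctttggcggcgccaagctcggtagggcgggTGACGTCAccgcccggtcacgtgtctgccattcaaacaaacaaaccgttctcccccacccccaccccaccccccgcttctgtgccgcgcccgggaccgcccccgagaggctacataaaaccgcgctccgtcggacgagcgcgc
Ier5: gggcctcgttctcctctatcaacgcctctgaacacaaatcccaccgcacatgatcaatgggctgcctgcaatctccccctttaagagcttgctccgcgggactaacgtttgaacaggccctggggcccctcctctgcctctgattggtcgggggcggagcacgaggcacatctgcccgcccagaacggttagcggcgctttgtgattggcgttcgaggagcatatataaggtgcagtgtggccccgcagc
Nr4a1: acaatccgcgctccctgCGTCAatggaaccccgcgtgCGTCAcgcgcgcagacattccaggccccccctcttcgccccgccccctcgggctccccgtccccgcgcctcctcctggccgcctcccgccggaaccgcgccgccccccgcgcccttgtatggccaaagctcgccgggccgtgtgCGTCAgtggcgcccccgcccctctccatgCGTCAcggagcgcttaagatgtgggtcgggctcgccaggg
Zfp36: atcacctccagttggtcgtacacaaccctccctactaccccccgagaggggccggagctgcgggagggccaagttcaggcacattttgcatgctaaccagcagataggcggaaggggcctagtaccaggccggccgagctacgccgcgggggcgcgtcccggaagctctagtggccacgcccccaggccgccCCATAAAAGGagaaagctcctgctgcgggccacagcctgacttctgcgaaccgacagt

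The full element TGACGTCA stood in the 300-base windows of Btg2 (bases -166 to -159 from the start) and Dusp1 (-143 to -136), and in 1.79% of 32851 mouse promoters searched the same way on both strands. It contains its core TGACG on both strands. The core stood in 4 of the 7 windows, those of Btg2, Dusp1, Klf4 and Nr4a1, and in 20.8% of all promoters. Nr4a1 held 4 copies of it, each on the other strand. The CArG box was found in Zfp36 alone among the 7 (-58 to -49), and in 1.63% of all promoters. The GC box GGGCGG, which in Zfp36 shares 1 base with the CArG box, stood in all 7 windows and in 35.7% of all promoters. Of 2 spellings of the site that EGR factors bind, GCGGGGGCG was present in 3 windows (Klf4, Nr4a1 and Zfp36) against 2.91% of all promoters. The other, GCGTGGGCG, was in 0 of 7 against 0.612% of all, and TATAAA in 0 of 7 against 13.6%. Ier5, shown above, held none of these except GGGCGG. A match describes the letters in these windows and is not a binding site.

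**Figure D1:**
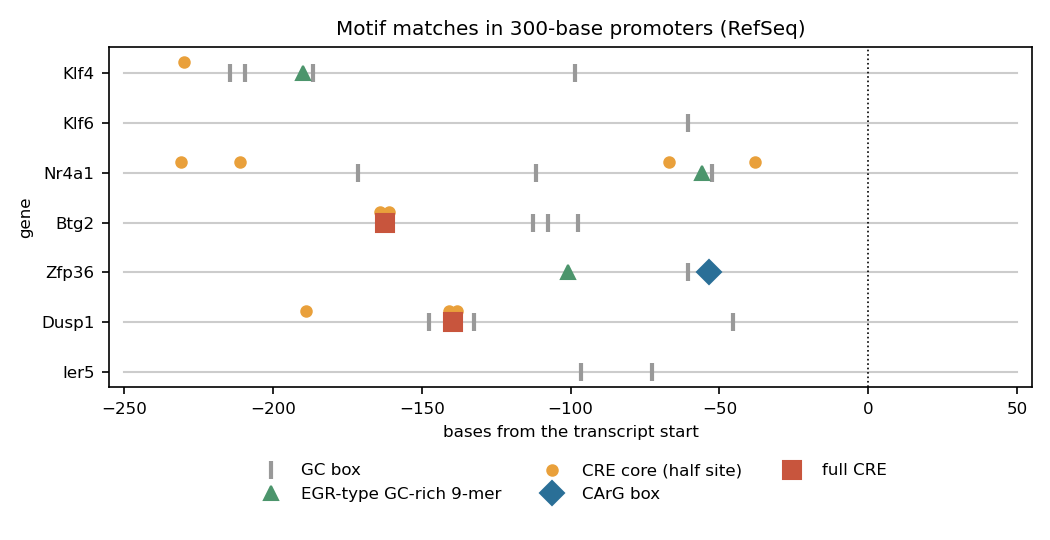
Positions of motif matches in the 300-base promoter windows of 7 members, in bases from the transcript start (x axis), 1 row per gene and 1 symbol per motif. Full cAMP response elements are drawn for Btg2 and Dusp1, 4 cores for Nr4a1, the CArG box for Zfp36, and GC boxes in every row.

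After 5 days of high-fat diet, 16 of the 17 probe sets had a mean above chow, as 43.9% of all did. Their median log2 difference was 0.36, where that of all 45037 probe sets tested was -0.02. The adjusted p of limma was under 0.05 for 6 of them, all higher, beside 1.53% of all probe sets called higher. These 6 belong to Btg2 (both its probe sets), Dusp1, Ier2 and Ier5 (2 of 3). The same 6 did not overlap the chow arrays, as 4.88% of all probe sets did not on the higher side. After 42 days the median difference from chow was 0.06, with 1 probe set called higher (4.65% of all) and 1 called lower (4.13% of all). Between the times, 15 of 17 were lower after 42 days than after 5, by a median of -0.30, and 5 were called lower, beside 3.59% of all. The 42-day arrays lay wholly below the 5-day arrays for 4 of them, as for 9.87% of all. Since the genes were picked on these differences, nothing is read from the counts against these shares. In whole tissue, a change in the cells present and a change in RNA per cell cannot be told apart.

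**Figure D2:**
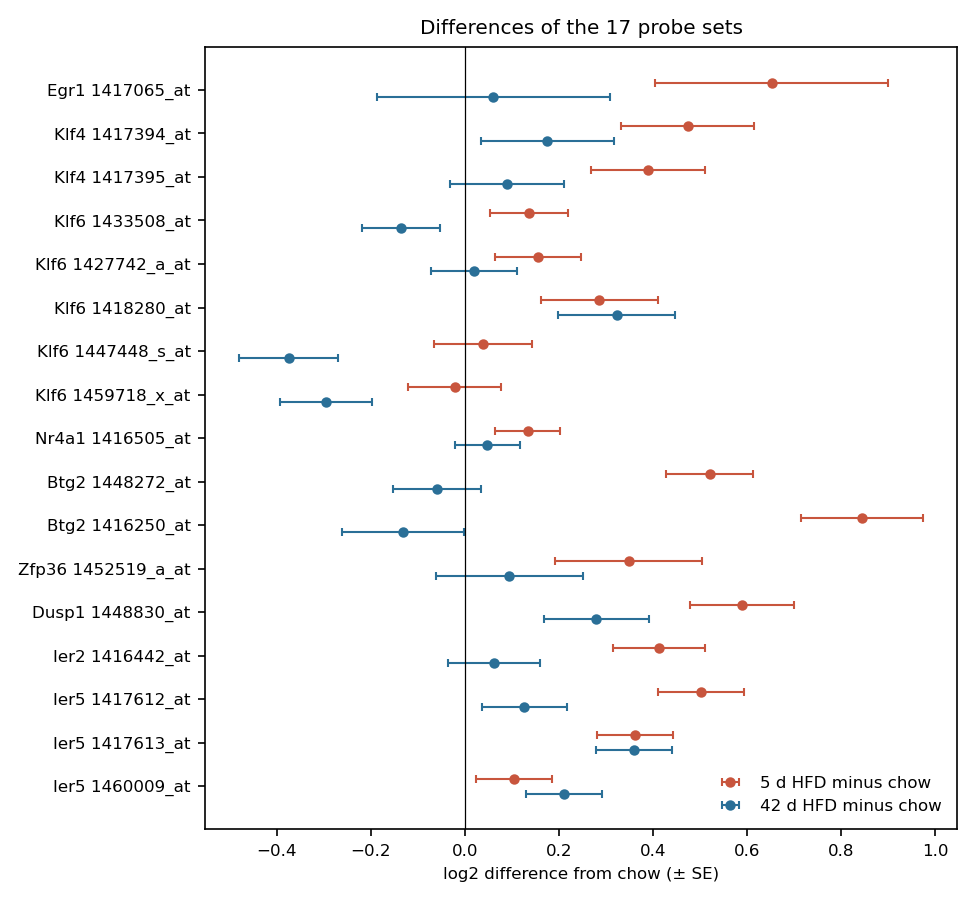
Log2 differences from chow (x axis, points with SE) of the 17 probe sets (rows), after 5 days and after 42 days of high-fat diet. The 5-day points lie right of 0 for all but the Klf6 probe set 1459718_x_at and reach 0.84 for Btg2, while the 42-day points lie between -0.37 and 0.36.

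Egr1, a zinc-finger transcription factor, is a standard readout of MAP kinase signalling. Its only probe set, 1417065_at, read 9.77, 9.68, 10.53 and 8.74 after 5 days, 9.06, 9.06, 9.22 and 9.01 after 42 days, and 8.89, 9.38, 8.88 and 8.95 on chow. The first 3 of the 5-day arrays stood above all other arrays, and the fourth below them all. The mean was 9.68 ± 0.733 after 5 days, against 9.03 ± 0.235 on chow (SD, n = 4), a log2 difference of 0.65 ± 0.247 (SE) that did not pass the test. With the fourth 5-day array, the lowest of all, left out it was 0.97 and passed. It did not pass without the second 5-day array (adjusted p = 0.230 by limma) or the third chow array (0.213). Nor did it pass with centred arrays (0.089), quantile normalization (0.194) or cyclic loess (0.199). The 42-day arrays averaged 9.09 ± 0.089, 0.06 from chow, and varied less than the 5-day arrays.

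Klf4 and Klf6 are Krüppel-like zinc-finger factors; Klf4 is known in endothelium as a shear-stress gene, and Klf6 as a factor of tissue injury. The brighter Klf4 probe set, 1417394_at, read 10.45, 10.81, 10.24 and 10.21 after 5 days, 9.93, 10.001, 10.30 and 10.28 after 42 days, and 10.02, 10.28, 9.64 and 9.87 on chow. The 5-day and chow arrays overlapped through the second chow array. The difference after 5 days was 0.47 ± 0.142 and did not pass the test, nor did 0.18 after 42 days. The second probe set, 1417395_at, gave 0.39 ± 0.122 and 0.09, and the pair followed each other across the 12 arrays (r = 0.979). Both passed at 5 days once each array was centred on its median. Neither passed under quantile normalization (adjusted p = 0.153 and 0.145 by limma) or cyclic loess (0.144 and 0.137).

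Klf6 was read by 5 probe sets, which did not move together. The brightest, 1433508_at, read 10.25, 10.44, 10.03 and 9.97 after 5 days, 9.94, 9.88, 9.89 and 9.89 after 42 days, and 10.01, 10.001, 10.01 and 10.12 on chow. All 42-day arrays lay below all chow arrays, by a mean of only -0.14 ± 0.083, which did not pass the test. Such separation toward lower values was seen in 7.81% of all probe sets. Probe set 1418280_at ran the other way at 42 days. It read 8.34, 8.61, 7.95 and 8.57 after 5 days, 8.43, 8.32, 8.31 and 8.56 after 42 days, and 8.24, 7.93, 7.92 and 8.23 on chow, with the 42-day arrays all above chow (0.32 ± 0.124, not past the test).

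Probe set 1447448_s_at was the Klf6 reading past the test after 42 days. It read 8.38, 8.56, 8.18 and 8.19 after 5 days, 7.68, 8.01, 7.86 and 8.11 after 42 days, and 8.14, 8.22, 8.48 and 8.31 on chow. The 42-day arrays were the lowest of each comparison and overlapped neither other group. It fell by 0.37 on the log2 scale (SE 0.105) against chow, and was lower by 0.41 than after 5 days, a call in each case. Without the third chow array the adjusted p of the chow comparison was 0.132 by limma. The suffix of this probe set, like that of 1459718_x_at (-0.30 ± 0.098 at 42 days, not past the test), marks probes that may bind other transcripts. The fifth, 1427742_a_at, differed by 0.16 and 0.02. Across the 12 arrays 1418280_at and 1447448_s_at correlated at -0.148, and the first minus the second was 0.04 ± 0.254 after 5 days, 0.49 ± 0.189 after 42 days and -0.21 ± 0.287 on chow (SD, n = 4). The 42-day range of that gap, 0.31 to 0.76, lay above the chow range of -0.57 to 0.10. The direction of Klf6 at 42 days thus differed between its probe sets, and no single direction is given for the gene.

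Nr4a1 (Nur77), an orphan nuclear receptor that drives glucose and lipid genes in fast muscle, was read by 1 probe set. That probe set, 1416505_at, read 13.85, 13.80, 13.71 and 13.59 after 5 days, 13.73, 13.52, 13.69 and 13.67 after 42 days, and 13.60, 13.56, 13.55 and 13.72 on chow. The 3 groups overlapped. The differences of 0.13 ± 0.069 after 5 days and 0.05 after 42 days did not pass the test.

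Btg2, which slows proliferation and shortens poly(A) tails through CCR4-NOT, had the largest called difference of the 9 genes. Probe set 1416250_at read 10.76, 10.81, 10.92 and 10.20 after 5 days, 9.69, 9.53, 9.76 and 9.81 after 42 days, and 9.96, 9.58, 9.83 and 9.94 on chow. Every 5-day array, the fourth included, stood above every other array. The mean rose to 10.67 ± 0.324 after 5 days, against 9.83 ± 0.176 on chow, a difference of 0.84 ± 0.130 or 1.80-fold. After 42 days it averaged 9.70 ± 0.120, -0.13 from chow and 1.97-fold lower than after 5 days.

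The other Btg2 probe set, 1448272_at, showed the same order with smaller steps. It read 11.38, 11.36, 11.51 and 10.99 after 5 days, 10.74, 10.64, 10.71 and 10.83 after 42 days, and 10.78, 10.73, 10.72 and 10.93 on chow. The 5-day arrays again lay above all others, 1.43-fold over chow (0.52 ± 0.093), and the correlation between the pair was 0.981. The 42-day level was -0.06 from chow and lower than the 5-day level by 0.58 on the log2 scale. The fall between the times was called in both.

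Zfp36, or tristetraprolin, binds AU-rich elements of cytokine mRNAs. Its probe set, 1452519_a_at, read 11.53, 11.52, 11.27 and 10.86 after 5 days, 11.01, 10.70, 11.34 and 11.12 after 42 days, and 11.09, 10.97, 10.59 and 11.13 on chow. The fourth 5-day array lay below 3 of the chow arrays, and the groups overlapped. The differences, 0.35 ± 0.157 after 5 days and 0.09 after 42 days, did not pass the test. Of 8 transcripts known as its targets, 7 were below chow after 5 days (median -0.10, lowest -0.22). Of all genes, 47% were above chow at that time, and an effect of Zfp36 on its targets was not tested. By limma 0 of the 8 passed, 3 of them being lower at an unadjusted p under 0.05, and after 42 days 0 passed and 0 were under it. The targets Il6, Cxcl2 and Ccl3 were below the lower quartile of signal on all 12 arrays.

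Dusp1 (MKP-1), the nuclear phosphatase of p38, JNK and ERK, read 12.41, 12.42, 12.19 and 11.96 after 5 days by probe set 1448830_at, 12.07, 11.68, 12.02 and 11.97 after 42 days, and 11.82, 11.72, 11.43 and 11.65 on chow. The 5-day arrays lay above all chow arrays, and the 42-day arrays between and across them. It rose 1.5-fold after 5 days, to 12.24 ± 0.219 against 11.65 ± 0.165 on chow (0.59 ± 0.111). After 42 days the mean of 11.93 ± 0.174 was 0.28 ± 0.111 above chow and -0.31 from 5 days, and neither passed the test.

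Ier2 encodes a small nuclear protein induced by growth factors. Probe set 1416442_at read 8.93, 9.08, 9.08 and 8.58 after 5 days, 8.39, 8.54, 8.73 and 8.60 after 42 days, and 8.53, 8.56, 8.45 and 8.47 on chow. The fourth 5-day array stood just above the highest chow array, and below 2 of the 42-day arrays. It rose 1.33-fold after 5 days (0.41 ± 0.098) and was 0.06 from chow after 42 days. Its 42-day level was called lower than the 5-day level (-0.35), though the arrays of those groups overlapped. Both calls were lost under quantile normalization, with adjusted p = 0.0519 (5 days against chow) and 0.0647 (42 against 5 days) by limma. Cyclic loess gave 0.0530 and 0.0714.

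Ier5, known in human cells as a partner of the phosphatase PP2A and of heat shock factor HSF1, had 3 probe sets. The brightest, 1417612_at, read 9.83, 9.87, 9.95 and 9.43 after 5 days, 9.36, 9.38, 9.38 and 9.46 after 42 days, and 9.14, 9.33, 9.31 and 9.30 on chow. Both diet groups lay above all chow arrays, the 42-day group by little. It rose 1.42-fold after 5 days (0.50 ± 0.091), while 0.13 after 42 days did not pass the test. Its 42-day level was lower than its 5-day level by 0.38, a call. That call was lost under quantile normalization (adjusted p = 0.0765 by limma) and cyclic loess (0.0771).

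The second Ier5 probe set, 1417613_at, read 8.74, 8.71, 8.63 and 8.46 after 5 days, 8.51, 8.59, 8.69 and 8.75 after 42 days, and 8.43, 8.28, 8.10 and 8.29 on chow. Here the diet groups were level with each other and both above chow. The difference was 0.36 ± 0.081 at either time and was called at both, and the 42-day level differed from the 5-day level by -0.0015. The brighter reading minus this one was 0.76 ± 0.076 after 42 days and 1.14 ± 0.147 after 5 days, without overlap, against 0.996 ± 0.207 on chow. The third, 1460009_at, was dim, between 5.76 and 6.31 on all arrays, with differences of 0.10 and 0.21 that did not pass. Toward higher values at 42 days, non-overlap with chow held for 3 of the 17 probe sets (the 2 brighter ones of Ier5 and 1418280_at of Klf6), as for 7.42% of all.

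**Figure D3:**
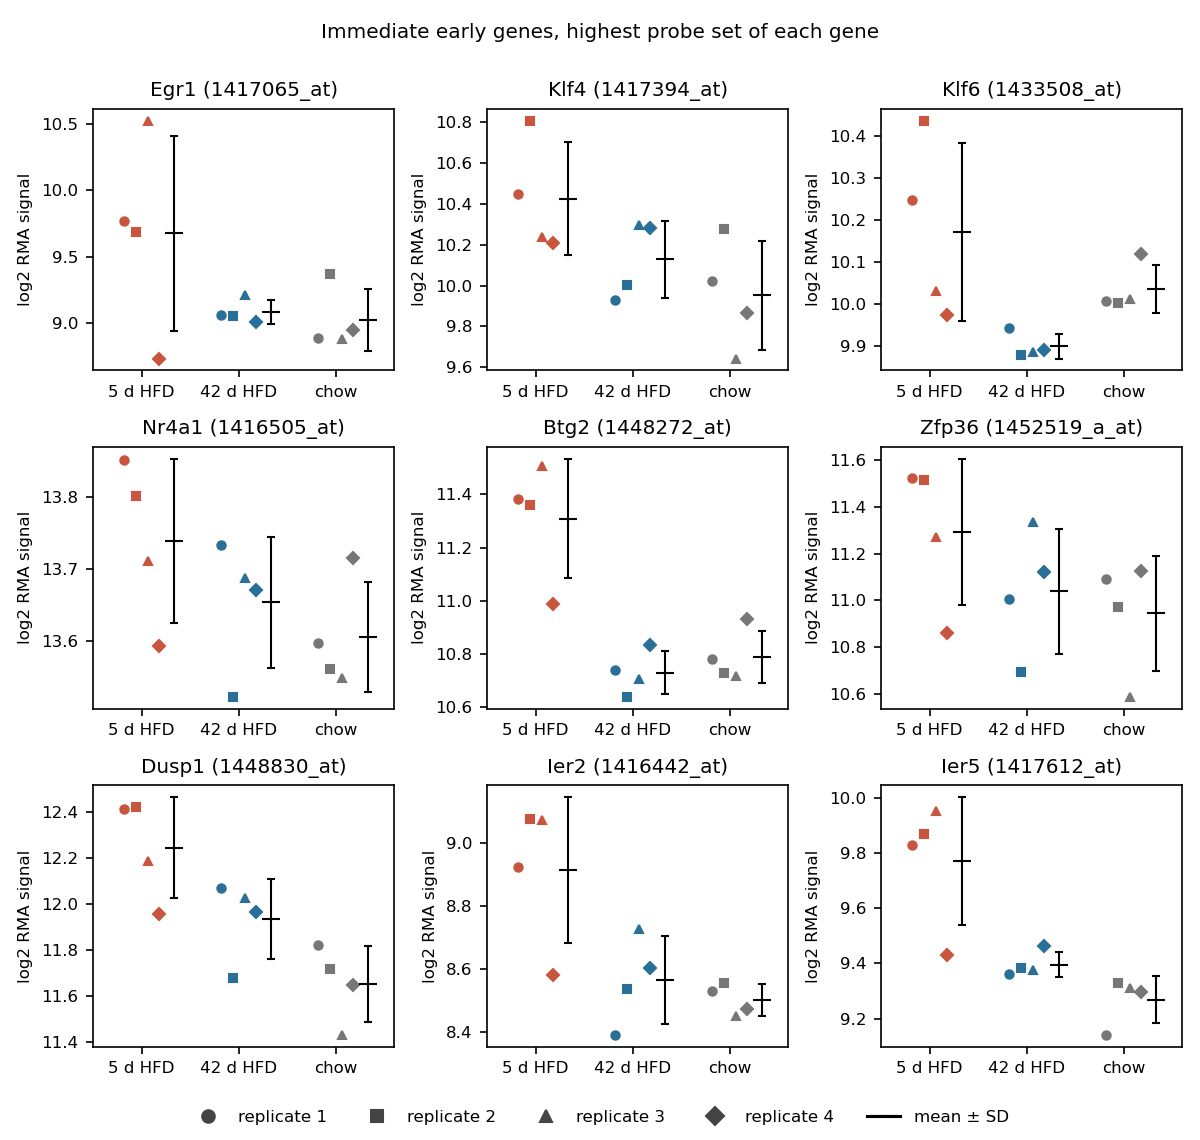
Log2 RMA signal (y axis) of each member's highest probe set on the 12 arrays, by group (x axis); symbols mark the replicates and bars the mean ± SD. The 5-day arrays of Btg2, Dusp1, Ier2 and Ier5 lie above all chow arrays, and the fourth 5-day array (diamond) is the lowest of its group in every panel.

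**Figure D4:**
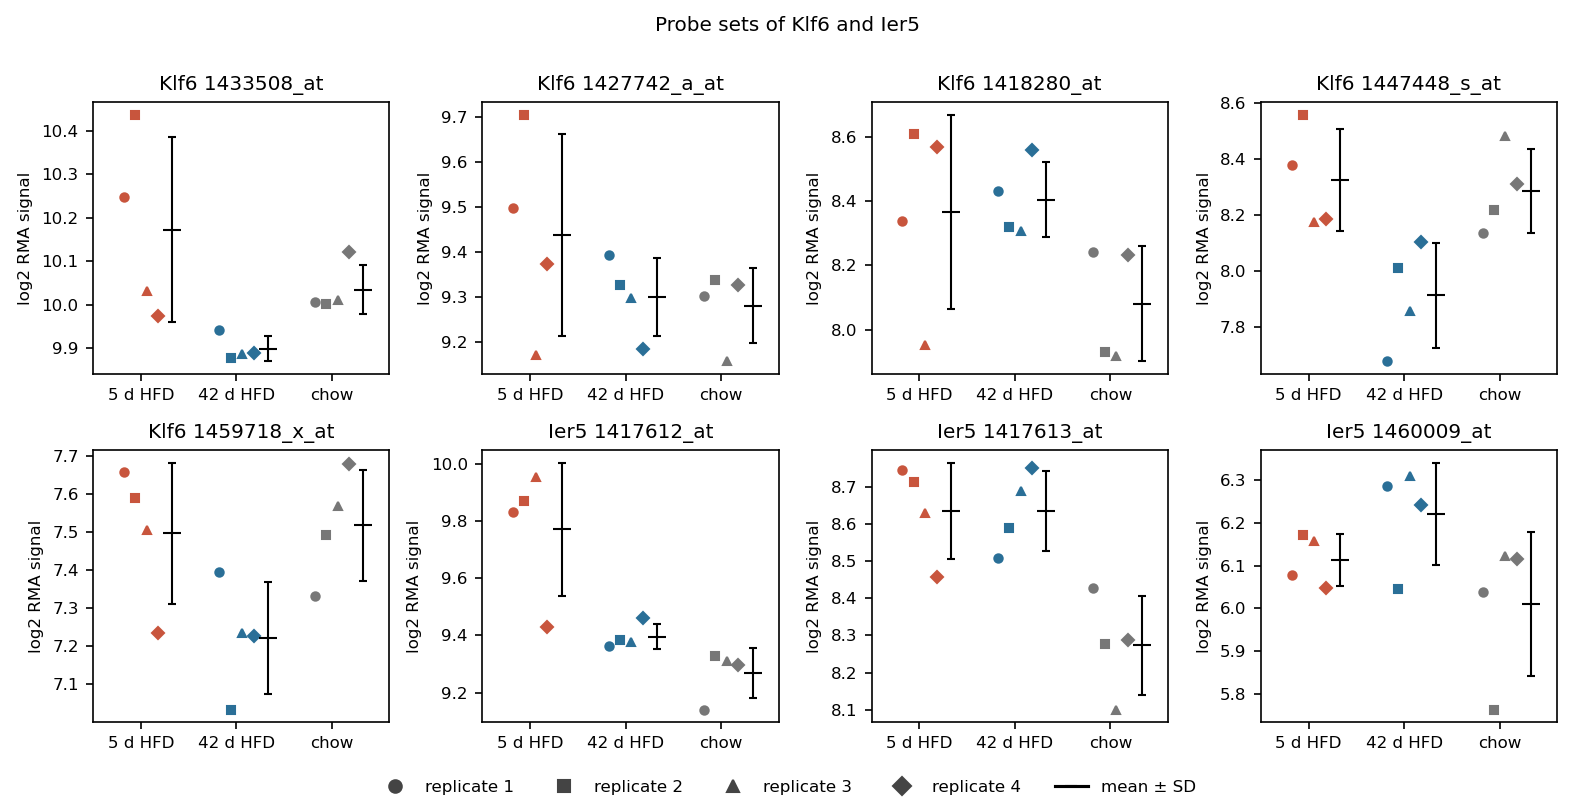
Log2 RMA signal (y axis) of the 5 Klf6 and 3 Ier5 probe sets by group (x axis), with replicates as symbols and bars for the mean ± SD. After 42 days the Klf6 probe set 1418280_at lies above chow and 1447448_s_at below it, and 1417613_at of Ier5 keeps its 5-day level while 1417612_at does not.

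The arrays within the 5-day group differed in the same way for most members. The fourth was the lowest of its group for 9 of 9 genes by their highest probe set, and for 13 of 17 probe sets. The highest value of all 12 arrays fell on the second 5-day array for 4 genes, on the third for 3 and on the first for 2. Averaged over the 9 genes, each scaled to its own mean and SD, the 5-day arrays stood at 1.33, 1.59, 1.11 and -0.35, the 42-day arrays at -0.36, -0.82, -0.02 and -0.16, and the chow arrays at -0.54, -0.39, -1.05 and -0.33. That last 5-day array thus stood among the chow and 42-day arrays by this mean. The third chow array was the lowest of all, and the lowest chow array for 7 of the 9 genes.

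**Figure D5:**
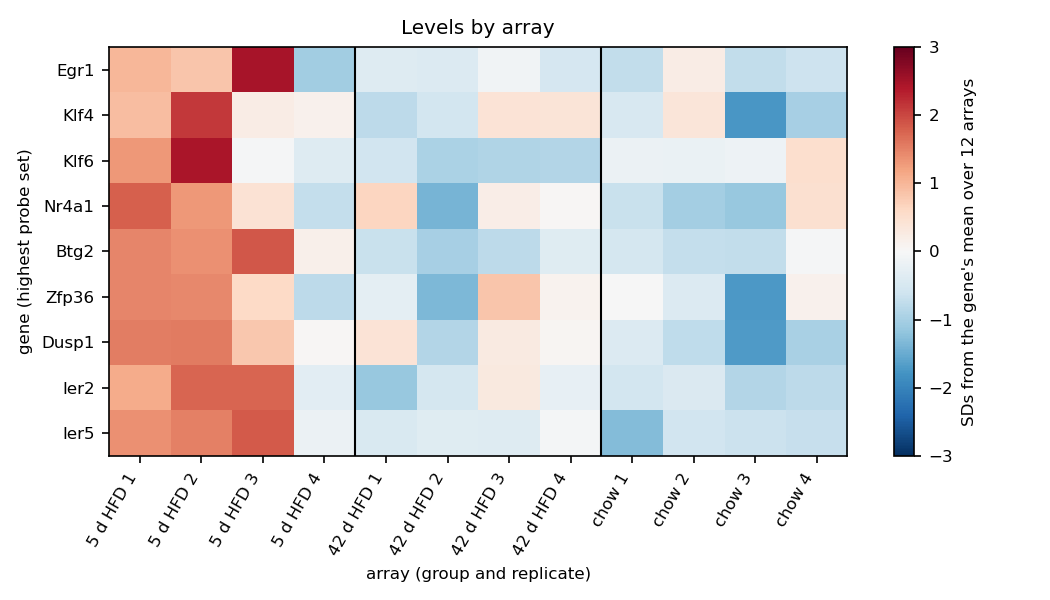
Level of each member's highest probe set (rows) on each array (columns), as SDs from the gene's mean over the 12 arrays, red above and blue below. The first 3 arrays of the 5-day group are red in nearly every row, while the fourth stands with the 42-day and chow arrays.

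Group means aside, the members followed one another from array to array. Of the 36 pairs of genes, 36 had a positive correlation of their deviations from the group means over 12 arrays, with a median of 0.567. The range ran from 0.124 for Egr1 and Klf6 to 0.899 for Zfp36 and Dusp1. In the 8 arrays of the 42-day and chow groups alone, 26 of 36 were positive, from -0.471 to 0.828, and the median was 0.215. The share of positive pairs among other genes is not given, so these counts are a description. All pairs share the arrays and their RNA.

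Leaving out single arrays moved the number of calls. Without the second 5-day array 0 of the 17 probe sets passed against chow after 5 days by limma, with 9 at an unadjusted p under 0.05, and without the third chow array the same counts held. Over all probe sets 5 passed in either case. The differences themselves changed less: Btg2 (1416250_at) stood at 0.80 and 0.85, Dusp1 at 0.53 and 0.52, Ier2 at 0.36 and 0.40, and Ier5 (1417612_at) at 0.47 and 0.52. Without the first 5-day or the fourth chow array 4 passed, and without the fourth 5-day array 7. Against the 5-day group, 5 calls at 42 days became 2 without any one of the first 3 5-day arrays or the first, second or the fourth 42-day array, 3 without the third 42-day array, and 9 without the fourth 5-day array. Against chow, the 2 calls at 42 days became 1 without any one of the first 3 42-day arrays or the last 3 chow arrays. They became 3 without the third or the fourth 5-day array or the first chow array.

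Other genes of the early response were set beside the members. Of 8 AP-1 genes, 2 rose after 5 days by limma: Fos by 1.35 ± 0.239 (adjusted p = 0.0263) and Jun by 0.39 ± 0.081 (adjusted p = 0.0302). Fos read 10.34, 10.69, 11.10 and 9.71 after 5 days, 9.06, 9.18, 9.20 and 9.26 after 42 days, and 9.26, 9.69, 8.72 and 8.77 on chow, again with the fourth array lowest of its group. Of 27 further early genes, 6 rose after 5 days: Errfi1, an inhibitor of EGF receptor signalling, by 0.51, the matricellular proteins Ccn2 and Ccn1 by 0.50 and 0.48, the stress sensor Gadd45b by 0.42, the nuclear protein Csrnp1 by 0.41 and the pseudokinase Trib1 by 0.37, with adjusted p between 0.0296 and 0.0462. The median difference was 0.18 over the 27 and 0.30 over the AP-1 genes, and 0 genes of either list fell, with 1 of each lower at an unadjusted p under 0.05. With 1 probe set read per gene, 1.24% of all genes were called higher at 5 days, 2.41% at 42 days. With the family member Dusp16 counted, 9 related genes were called at 5 days. The fourth 5-day array was the lowest of its group for 7 of them, and the third for Ccn2 and Dusp16. These 9 calls became 0 without the second 5-day or the third chow array, 3 without the first 5-day or the fourth chow array, and 4 without the first or second chow or the third 42-day array.

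After 42 days 0 of the 8 AP-1 genes passed against chow, with 1 at an unadjusted p under 0.05. Of the 27 others, 2 rose, Ccn2 by 0.45 (adjusted p = 0.0289) and the survival factor Mcl1 by 0.22 (adjusted p = 0.0163). These 2 calls became 0 without the fourth 42-day array, 1 without the first or the third 42-day or the third or the fourth chow array, and 3 without the second 42-day or the first chow array. Of the 3 without the first chow array, only 1 was among these 2. Between the times, 3 AP-1 genes (Fos by -1.28, Fosl2 by -0.48 and Jund by -0.30) and 3 others (Maff, Csrnp1 and Per1, between -0.37 and -0.30) were lower after 42 days, beside 4.34% of all genes called lower. Except for Fos and Csrnp1, these were named after their values were seen. Those calls, with that of Dusp16, became 0 without the fourth 42-day array, 1 without the second 5-day or first 42-day array, 2 without the third 5-day array and 4 without the second 42-day array.

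Relatives of the members by gene family were other Klf, Nr4a, Egr, Dusp, Btg, Ier5 and Zfp36 genes. Of 35 measured, 1 rose after 5 days, the JNK and p38 phosphatase Dusp16, by 0.24 ± 0.057 (adjusted p = 0.039). Their median differences were 0.04 after 5 days and -0.01 after 42 days, and 0 passed against chow at 42 days by limma, with 5 at an unadjusted p under 0.05. Dusp16 was lower after 42 days than after 5 by 0.37. Of 16 measured genes for upstream kinases and transcription factors, such as SRF, ELK and CREB, 0 passed after 5 days, with 4 higher at an unadjusted p under 0.05. Creb1, which encodes the factor that binds the cAMP response element, fell by 0.25 after 42 days (adjusted p = 0.0372), as 3.9% of all genes were called lower. Between the times, 12 of the 16 were lower after 42 days and 4 higher. By limma 2 were called lower, beside 4.34% of all genes, and 6 were lower at an unadjusted p under 0.05. The EGR corepressors Nab1 and Nab2 differed by at most 0.06 from chow at either time and 0 passed, with 0 under an unadjusted p of 0.05.

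Among 11 genes that Nr4a1 is known to drive in muscle, 0 passed after 5 days by limma, with 2 higher at an unadjusted p under 0.05. After 42 days 1 rose, the fatty acid transporter Cd36, by 0.65 ± 0.086 (adjusted p = 0.000592). It averaged 12.05 ± 0.070 after 5 days and 12.44 ± 0.157 after 42 days, against 11.79 ± 0.156 on chow.

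The genes most like the members' mean over the 12 arrays, of 16305 compared, were Prkaa2, the catalytic α2 subunit of AMP kinase (r = 0.961), Iars2 (0.959), Errfi1 (0.933), Apold1 (0.921), Stxbp3 (0.920), Cmya5 (0.920), Nae1 (0.911) and Csrnp1 (0.910). Of these, Iars2, Errfi1, Apold1 and Csrnp1 were called higher after 5 days, by 0.25, 0.51, 0.59 and 0.41. Prkaa2 differed by 0.09 and Cmya5 by 0.05, with no call. With group means taken away, the nearest were Itga9 (0.961), Foxn2 (0.959), Prkaa2 (0.952), Map3k21 (0.951), Coro2a (0.937), Pdzd4 (0.928), Bcl2l1 (0.925) and Cmya5 (0.922). These are descriptions over shared arrays, picked as the highest of many.

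Markers of other cell types also differed between the groups. The mean of 8 endothelial markers was 9.18 ± 0.158 after 5 days and 9.08 ± 0.069 after 42 days, against 8.98 ± 0.078 on chow. Their summed signal ran from 4181 to 5512 after 5 days, 4218 to 4692 after 42 days and 4012 to 4507 on chow, and 0 of them lay below the lower quartile on all arrays. Vwf and Cldn5, 2 of the 8, rose after 5 days, and Pecam1 after 42 days. Of the 8, 1 lay below chow after 5 days and 2 after 42 days. With their mean as a covariate, the 5-day differences of the 6 called probe sets were 0.99 and 0.60 for Btg2, 0.54 for Dusp1, 0.39 for Ier2, and 0.53 and 0.30 for Ier5, beside 0.84 and 0.52, 0.59, 0.41, and 0.50 and 0.36 without it. Egr1 stood at 0.94, beside 0.65 without it. The Klf4 differences were smaller, at 0.14 and 0.08 beside 0.47 and 0.39, and the 5 of Klf6 lay between -0.13 and 0.05. The SE was larger with the covariate for each called probe set (0.171 beside 0.130 for 1416250_at of Btg2). By limma 0 of the 17 passed, with 7 at an unadjusted p under 0.05, and over all probe sets 0 passed as well. The fourth 5-day array, lowest for the members, read 9.22 in these markers, the second highest of its group (9.18, 9.36, 8.98 and 9.22). The covariate itself differed between the groups, so this fit cannot separate it from diet. The part of endothelial cells in the members' differences was not tested.

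Of 7 fibroblast markers, Col1a1, Col1a2 and Lum rose after 42 days, and 1 lay below chow. After 5 days 0 of them passed by limma, 5 being higher at an unadjusted p under 0.05. Their summed signal ran from 28311 to 42321 after 5 days, 36775 to 40337 after 42 days and 24418 to 35019 on chow. Of 6 measured adipocyte markers, 2 fell after 5 days, Retn by 0.97 and Cidec by 1.33, beside 1.65% of all genes called lower. The summed signal ran from 14987 to 20007 after 5 days, 15001 to 21868 after 42 days and 18799 to 33115 on chow. With the adipocyte mean as a covariate, 0 of the 17 probe sets passed after 5 days, with 8 at an unadjusted p under 0.05. The median difference was 0.35, and those of the 6 probe sets called without it ran from 0.39 to 0.95. Of 6 mural markers, Myh11 rose at both times, and 1 lay below chow after 42 days. Of 6 macrophage markers, Lyz2 rose after 42 days, while 3 of the 6 lay below chow. After 5 days 2 of them were lower and 1 higher at an unadjusted p under 0.05. In all of these lists 0 markers lay below the lower quartile on all arrays. Of 14 measured markers of brown adipocytes, lymphocytes and granulocytes, satellite cells, red cells and Schwann cells, 0 passed against chow at either time, with 6 at an unadjusted p under 0.05 after 5 days and 3 after 42 days. Otop1 and Myf5 among the 14 lay below the lower quartile on all arrays. Of the 4 brown adipocyte markers, 4 were below chow after 5 days, by a median of -0.95, with 3 at an unadjusted p under 0.05 by limma. After 42 days 3 lay below chow and 1 above. Their summed signal ran from 618 to 725 after 5 days, 625 to 1489 after 42 days and 717 to 3264 on chow. Their part in the members' differences was not tested.

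Liver transcripts were the largest marker difference at 42 days: Alb, Apoa1, Ttr and Serpina1b, 4 of 4, rose by 0.54 to 2.19. Their summed signal ran from 1320 to 4654 after 5 days and 4119 to 11314 after 42 days, against 1566 to 2406 on chow. The 3′ minus 5′ signal of 4 control transcripts, a measure of RNA quality and labelling, was 1.02 ± 0.075 after 5 days and 0.89 ± 0.078 after 42 days, against 1.07 ± 0.063 on chow. With it as a covariate, 4 of the 17 passed after 5 days against chow, and 0 passed after 42 days, with 3 at an unadjusted p under 0.05. The part of liver transcripts and of this 3′ to 5′ measure in the members' differences was not tested.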

How the data were processed

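RNA of 12 skeletal muscle samples, 4 per group, was read on Affymetrix arrays. The deposited values are 1 per probe set and array, between 3.67 and 15.46. RMA made them, per the submitters' processing notes; its software, version and the time of scanning are not given in the sources used here. No label states the log2 scale of the deposited values: it follows from their range and the nearly equal quartiles of the arrays. Of 45098 probe sets, 61 were controls and 45037 were tested; 34945 had 1 gene symbol in the 2016 platform annotation, 932 several and 9160 none. Through Entrez identifiers 34741 matched RefSeq (GRCm38.p6), and 0 symbols changed. No filter was set.

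Group means were fitted to all 12 arrays with limma 3.58.1 (R 4.3.3; 9 residual and 6.26 prior degrees of freedom), tested two-sided, and adjusted by Benjamini-Hochberg over all probe sets within a contrast at 0.05. Other genes were read by their probe set with the highest mean. Errors are SE for differences and SD for levels. Precision is limited by the number of arrays, which carry no read depth. The procedure was tested on simulated data. The members, gene lists and settings were chosen with earlier results of these data known. The text names every member probe set, the genes of each list past the test against chow (at most 6 by p), and the 8 genes most like the members' mean. Replicate numbers did not pair the arrays: 4 of 12 same-number pairs correlated above 0.1. Alternatives were other scalings, array weights, covariates, filters, 8-array fits, a replicate block and leaving out each array.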

Additional observations from a re-analysis of the deposited data

Results flagged for a closer look

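Of the 51 sets of 4 values formed by 17 probe sets in 3 groups, 3 held an array far from the other 3 of its group by Dixon's test, where chance gives about 5% of such sets. Egr1 read 9.38 on the second chow array, against 8.88 to 8.95 on the other chow arrays. Klf6 (1433508_at) read 10.12 on the fourth chow array, against 10.001 to 10.011. Ier5 (1417612_at) read 9.14 on the first chow array, against 9.30 to 9.33.

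The differences from chow themselves differed between the times for 5 probe sets, by the 42-day minus 5-day contrast. It was -0.98 and -0.58 for the probe sets of Btg2, -0.41 for Klf6 (1447448_s_at), -0.38 for Ier5 (1417612_at) and -0.35 for Ier2, each past the test over all probe sets. Under the alternatives, Btg2 passed in 22 of 23 (1416250_at) and 23 of 24 refits (1448272_at). Klf6 passed in 14 of 23, Ier5 in 13 of 24 and Ier2 in 9 of 24.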

How the results depend on the processing

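The 13 called differences of the members changed sign under none of the alternatives, and passed in 216 of 306 refits. Of all 1197 refitted differences, 1175 moved by less than 1 SD. Counts moved more; below, the range that ends each item is over the 12 fits that leave out 1 array, and related genes are the AP-1, other early and family lists. After 5 days against chow, 6 member calls became 0 with the 8 arrays alone (10 at an unadjusted p under 0.05) or with the adipocyte (8) or endothelial (7) markers as covariate, and 0 to 7 with single arrays left out. The 1445 calls over all probe sets (687 higher, 758 lower) became 487 (quantile), 2771 (centred arrays: 2364 higher, 407 lower), 502 (cyclic loess), 692 (1 probe set per gene), 7 (8 arrays), 675 (array weights), 533 (3′ to 5′ covariate) and 0 by limma with the adipocyte (9055 at an unadjusted p under 0.05) or endothelial (4545) covariate, and 5 to 1591 with an array left out. The 9 related-gene calls became 1, 19 and 1 under the 3 scalings, 0 with 8 arrays (29 at an unadjusted p under 0.05), 3 with the 3′ to 5′ covariate and 0 with the adipocyte (29) or endothelial (16) covariate, and 0 to 10. After 42 days, 2 member calls became 0 (1 probe set per gene, 1 at an unadjusted p under 0.05, and 3′ to 5′, 3) or 1 (either marker covariate), and 1 to 3. The fit with 1 probe set per gene did not test either of these 2, 1417613_at of Ier5 and 1447448_s_at of Klf6. In each contrast it tested 18193 probe sets, 9 of them members, so its counts are not to be set against those over 45037. All 3953 calls became 1011 (1 probe set per gene), 17 (3′ to 5′), 1506 (adipocyte) and 1821 (endothelial), and 1945 to 4407. The 2 related calls became 0 (3′ to 5′, 8 at an unadjusted p under 0.05, and adipocyte, 5) or 1 (endothelial, a gene other than these 2), and 0 to 3. Between the times, 5 member calls became 3 (quantile, loess, 1 probe set per gene), 8 (centred, array weights), 0 (3′ to 5′, with 11 at an unadjusted p under 0.05) or 2 (endothelial), and 2 to 9. Of these 5, the fit with 1 probe set per gene did not test 1416250_at of Btg2 and 1447448_s_at of Klf6, and the 3 it tested stayed called. All 2692 (1074 higher, 1618 lower) became 1206 (quantile), 5221 (centred: 506 higher, 4715 lower), 1125 (loess), 1550 (1 probe set per gene), 1 (3′ to 5′) and 1144 (endothelial), and 32 to 3173. The 7 related calls became 4 (quantile, loess, endothelial), 13 (centred), 12 (dimmest 40% left out) and 0 (3′ to 5′, 21 at an unadjusted p under 0.05), and 0 to 10. The cause of these moves was not tested. Under all 3 scalings 17 of 17 probe sets were above chow after 5 days, where the deposited values gave 16. With the replicate number as a block, the members had 6, 2 and 5 calls, all probe sets 1623, 3914 and 2831, and related genes 11, 3 and 8, in the 3 contrasts. Signal near background limits the dim Ier5 probe set.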
